A study of Mus musculus with 71 samples.

Results

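The genes described here carry the names of proteins of the mitochondrial ribosome, Mrpl for the large subunit and Mrps for the small subunit. They were taken as every gene whose current symbol begins with Mrpl or Mrps followed by a digit and which has at least 1 probe set annotated to that gene alone. The rule gave 74 of the 12393 genes with such a probe set, 47 Mrpl and 27 Mrps genes, measured by 127 probe sets. They are called large and small subunit genes by symbol alone. A symbol does not always give the place of its protein, as for Mrps36 below. Each gene is represented by the probe set with the highest mean log2 signal over all arrays.

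Mitochondrial ribosomes translate the few messenger RNAs of the mitochondrial genome, all of which encode membrane subunits of the respiratory chain and the ATP synthase. Their proteins are all encoded in the nucleus, made in the cytosol and imported, and many have bacterial counterparts while others arose in the mitochondrial lineage. Adipocytes build mitochondria as they mature, and thiazolidinediones, ligands of the nuclear receptor PPARγ, are known for raising nuclear genes of oxidative metabolism in fat cells.

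RNA came from mouse 3T3-L1 and C3H/10T1/2 cells, established fibroblast lines that were turned into adipocytes before the experiment. Rosiglitazone (RSG, a thiazolidinedione) was compared with its vehicle dimethyl sulfoxide (DMSO) on Affymetrix arrays at 6 times (1, 2, 4, 7 and 24 hrs, and 48 hrs), 35 of 3T3-L1 and 36 of C3H/10T1/2. Each line had an RSG and a DMSO group at every time, with 3 arrays a group except 3T3-L1 with DMSO at 2 hrs, which had 2. The 3T3-L1 cells were differentiated over 7 days, of which only the first 2 included RSG (100 nM), given with insulin (0.8 μM), isobutylmethylxanthine and dexamethasone. For the next 2 days they had insulin and for the last 3 neither. The C3H/10T1/2 cells were given insulin (1 μM) together with RSG at 10 μM, over 6 days. Every group, DMSO included, had therefore met RSG during differentiation, and all cells spent 24 hrs in serum albumin medium without it before RSG (1 μM) or DMSO was added. Replicates came from separate batches of cells, each pooled from several wells, so each is 1 culture of an established line and not an animal, and p-values measure the spread between these cultures. With 3 arrays a group, their number limits the precision.

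All arrays had been scaled to 1 mean level, and their trimmed means of signal lay between 150.05 and 150.07. Every one of the 74 genes stood at or above the presence level of the study's methods on every array of both lines. Of the 7 adipocyte markers measured, Fabp4, Adipoq, Lpl, Cebpa, Pparg and Cidec were present on all 71 arrays and Lep (leptin) on none. The summed signal of the 6 preadipocyte or fibroblast markers was lower with RSG in both lines at both late times, without overlap. In 3T3-L1 at 24 hrs it was 5165 to 6340 with RSG and 7955 to 9470.0 with DMSO, and at 48 hrs 6465 to 6828 and 10050 to 10510. The C3H/10T1/2 sums at 24 hrs were 4531 to 5286 with RSG and 6241 to 7144 with DMSO, and at 48 hrs 4214 to 5375 and 6032 to 6527. The summed signal of the 7 adipocyte markers overlapped between RSG and DMSO in 3 of these 4 comparisons and was higher with RSG in 3T3-L1 at 24 hrs (28880 to 36220 against 22550 to 28520). The part of these markers in the results below was not tested, and in RNA from whole cultures fewer cells of a type and less RNA per cell cannot be told apart. Summed signals of the muscle (at most 242), leukocyte (at most 451) and bone or cartilage markers (at most 96.9) were low and overlapped between RSG and DMSO at 24 and 48 hrs. Ptprc, the leukocyte common antigen, was present on 1 of 35 arrays of 3T3-L1 and on none of 36 of C3H/10T1/2. The other leukocyte markers were mostly present, with Cd68 and Cd14 on all 71 arrays and Adgre1 on 35 of 35 and 29 of 36. The median signal of Cd68, a macrophage protein of lysosomes, read 171 for C3H/10T1/2, where the highest array was at 367, and 33.6 for 3T3-L1.

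Before the values, stretches of the promoters of 8 genes that responded are shown. They were picked from the 16 such genes with a promoter for a match upstream of the start. The match is to 1 of 2 elements often found before nuclear genes of mitochondrial proteins. The elements are the core of the NRF1 element (GCGCANGCG) and the ETS core (CCGGAAG), searched on both strands. Of 74 genes, 65 matched a promoter in the RefSeq table (build GRCm38.p6, 250 bases before to 50 after a start), giving 71 promoters. The stretches below lie upstream of the start and run 5′ to 3′ on the strand of the gene, with the element in capitals, written as its reverse complement where it lies on the other strand. The first 3 hold the NRF1 core.
Mrpl12 (chr11:120484531-120484591, plus strand): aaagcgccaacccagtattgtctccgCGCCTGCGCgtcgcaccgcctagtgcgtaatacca
Mrpl45 (chr11:97315652-97315712, plus strand): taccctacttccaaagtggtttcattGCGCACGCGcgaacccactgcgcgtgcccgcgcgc
Mrps18b (chr17:35916630-35916690, minus strand): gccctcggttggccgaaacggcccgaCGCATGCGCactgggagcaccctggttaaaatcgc
The next 5 hold the ETS core, and Mrpl52 among them is the only one whose gene was lower with RSG than with DMSO.
Mrpl18 (chr17:12916299-12916341, minus strand): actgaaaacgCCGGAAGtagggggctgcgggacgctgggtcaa
Mrpl34 (chr8:71464863-71464921, plus strand): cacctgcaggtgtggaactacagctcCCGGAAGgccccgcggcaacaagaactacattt
Mrpl51 (chr6:125192084-125192142, plus strand): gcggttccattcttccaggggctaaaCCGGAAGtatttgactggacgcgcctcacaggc
Mrps16 (chr14:20393532-20393590, minus strand): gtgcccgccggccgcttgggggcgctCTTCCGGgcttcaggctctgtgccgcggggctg
Mrpl52 (chr14:54426836-54426894, plus strand): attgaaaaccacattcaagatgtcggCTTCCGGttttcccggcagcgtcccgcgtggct
The NRF1 core was in 15 of the 71 promoters (21.1%), against 6.25% of all 32851 promoters in the table and 10.6% of the 12566 promoters of genes on the array. The ETS core was in 24 (33.8%), against 8.86% and 14% in the same sets. The YY1 core AAGATGGCG was in 7 (9.86%, against 1.4% and 2.31%). Of the 16 genes that responded and had a promoter, 3 held the NRF1 core, 7 the ETS core and none the YY1 core. The Sp1 box GGGCGG was in 39 (54.9%), against 35.7% and 55.4%. The E-box CACGTG was in 7 (9.86%, against 7.15% and 9.11%) and the element TGACGTCA of cyclic AMP response in 2 (2.82%, against 1.79% and 2.51%). The estrogen-related receptor element TCAAGGTCA and the direct repeat of AGGTCA spaced by 1 base, the form PPARγ binds, were in none of the 71, against 0.423% and 0.286% for the first and 0.0396% and 0.0318% for the second. A match says that the letters are there, and says nothing of binding or of the response to RSG. Some of these elements can overlap, and none was searched outside the 300 bases.

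The question asked of each line and time was which mitochondrial ribosomal protein genes differed between RSG and DMSO. A gene is called here when limma, fitted over all 12 groups of a line, gave a Benjamini-Hochberg adjusted p under 0.05 over all probe sets tested (18028 for 3T3-L1, 16123 for C3H/10T1/2). Differences are log2 fold changes of MAS 5.0 signal, RSG over DMSO, with their standard errors. Of the 74 genes, 18 were called in at least 1 of the 12 comparisons, 15 of them higher with RSG and 3 lower, and 56 were never called. Over all 9315 genes tested in both lines, 26.1% were called at least once, against 24.3% of the 74, so the count of 18 is close to the background. Called higher at least once were 20.3% of the 74 and 10.8% of all genes, and called lower 4.05% and 15.5%. The 18 were 9 of the 47 large and 9 of the 27 small subunit genes.

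At 1, 2 and 4 hrs limma called no mitochondrial ribosomal protein gene in either line. Without adjustment for multiple testing, 4, 2 and 2 of the 74 had a limma p under 0.05 in 3T3-L1 at these times and 1, 1 and 4 in C3H/10T1/2. Over all 10451 genes tested in 3T3-L1, 308, 286 and 396 were higher and 136, 158 and 368 lower at that p. Of 9411 in C3H/10T1/2, 176, 179 and 371 were higher and 132, 220 and 438 lower. The test that the methods name, here called the methods' test, which asks for a difference of at least 1.2-fold and p under 0.05 without adjustment, marked 5, 2 and 2 genes for 3T3-L1, and 1, 1 and 4 for C3H/10T1/2. Its counts in this report, and those of the other alternative settings below, stand without the share of all genes and are not read as results. Few probe sets of any gene were called at these times, 0.0666%, 0.172% and 0.716% for 3T3-L1, and 0.0434%, 0.229% and 0.763% in C3H/10T1/2. The median log2 fold change of the 74 genes was -0.06 for 3T3-L1 and 0.01 for C3H/10T1/2 at 1 hr.

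At 7 hrs the first genes were called. In C3H/10T1/2 2 of 74 genes, Mrpl12 and Mrpl18, were higher with RSG and none was lower, where 1.65% of all probe sets were called higher and 1.2% lower. In 3T3-L1 limma called none at 7 hrs (background 1.22% higher and 0.821% lower), although 10 genes were higher and 1 lower at an unadjusted p under 0.05, and the methods' test marked 10 higher and 2 lower. Over all 10451 genes tested, 601 were higher and 758 lower at that unadjusted limma p. With the replicate number as a block, limma called 5 higher in C3H/10T1/2 and 2 in 3T3-L1. Same-numbered RSG and DMSO arrays correlated above 0.1 in all 18 pairs of C3H/10T1/2 and in 14 of 17 of 3T3-L1. Whether equal numbers mark paired samples was not tested. With the 2 groups alone in the fit, 1 was called in C3H/10T1/2. The median over the 74 genes was 0.11 (3T3-L1) and 0.10 (C3H/10T1/2) at 7 hrs, beside -0.05 and -0.07 for all genes tested. Leaving out RSG replicate 1 or 2 or DMSO replicate 2 or 3 of C3H/10T1/2 left 1 gene called, Mrpl12.

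At 24 hrs 6 genes were called higher with RSG than with DMSO in 3T3-L1 and 9 in C3H/10T1/2, and none was called lower in either line. The share of all probe sets called higher was 4.79% and 3.65%, and called lower 6.97% and 4.07%, so that 8.108% and 12.16% of the genes described here rose where over all probe sets more were called lower than higher. Beside the 0 that fell, 2 genes of 3T3-L1 and none of C3H/10T1/2 were lower at an unadjusted limma p under 0.05, and the methods' test marked 2 lower in 3T3-L1. Of all genes tested, 1517 of 10451 in 3T3-L1 and 1247 of 9411 in C3H/10T1/2 were lower at that limma p. At 48 hrs 5 rose and 3 fell in 3T3-L1 (6.757% and 4.054%, background 6.2% and 8.09%), so the share that rose was near the background. In C3H/10T1/2 9 rose and none fell (background 2.79% and 2.62%, and also none lower at an unadjusted limma p under 0.05, beside 884 of all 9411 genes). These counts rested partly on single arrays: in 3T3-L1 at 24 hrs, 2 genes rose when RSG replicate 1 was left out and 3 when DMSO replicate 2 was, 5 in C3H/10T1/2 at 24 hrs without DMSO replicate 2 and 4 at 48 hrs without DMSO replicate 1. With the replicate block, 13 rose in 3T3-L1 and 16 in C3H/10T1/2 at 24 hrs. The share of all probe sets called with the block is not given, so these counts are not read as a stronger response. With the 2 groups alone in the fit, 4 rose in C3H/10T1/2 at 24 hrs and 1, Mrpl34, at 48 hrs, and 3 in 3T3-L1 at 48 hrs.

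**Figure D1:**
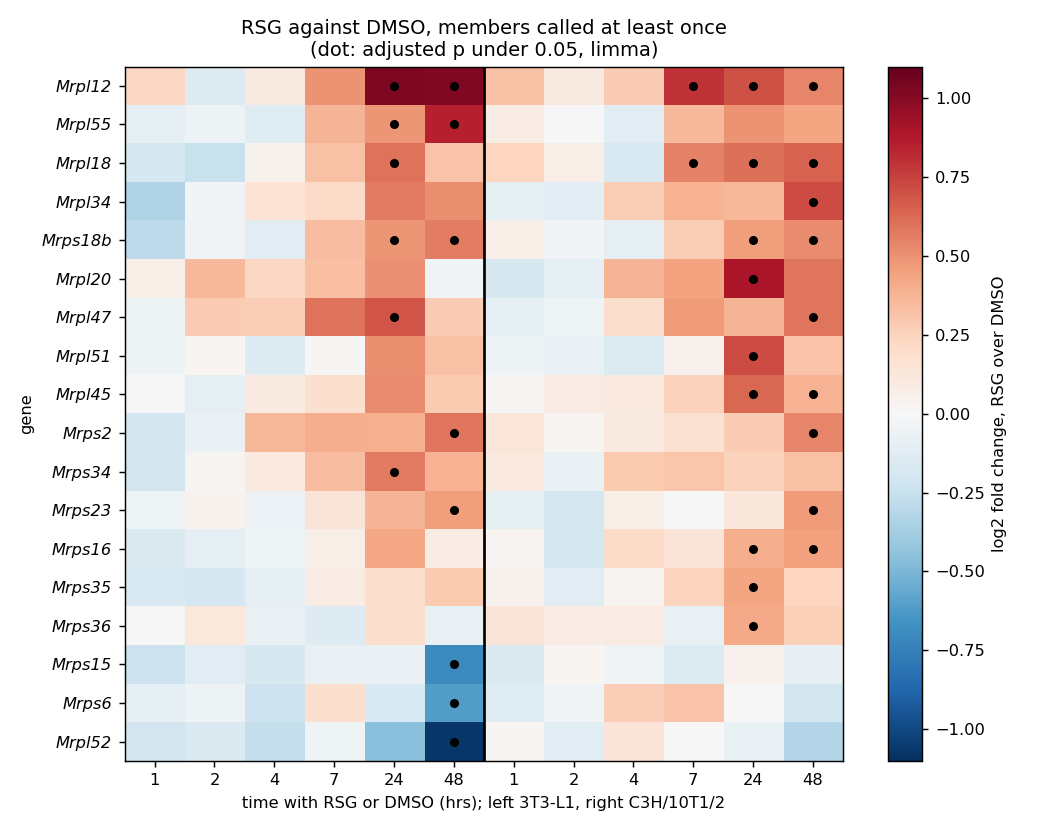
Log2 fold change of RSG over DMSO (colour) for the 18 genes called in at least 1 comparison (rows), by time in hrs, for 3T3-L1 (left) and C3H/10T1/2 (right), with a dot where limma gave an adjusted p under 0.05. Mrpl12 is called in 5 of the 12 columns, and the 3 genes at the foot are called lower in 3T3-L1 at 48 hrs.

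Mrpl12 rose furthest in 3T3-L1 at both late times. It is the counterpart of the bacterial stalk protein, which recruits translation factors to the large subunit, and it is also known to bind the mitochondrial RNA polymerase. In 3T3-L1 at 24 hrs its signal was 810.4, 958 and 1008 on the RSG arrays and 450.2, 419 and 487 on the DMSO arrays, in the order of the replicates. Each RSG array was well above every DMSO array. The log2 fold change was 1.03 ± 0.17 (limma adjusted p = 5.26e-05). At 48 hrs the signals were 758, 828 and 823 on the RSG arrays and 413, 391.6 and 382 on the DMSO arrays, again without overlap, and the log2 fold change was 1.02 ± 0.17 (limma adjusted p = 4.46e-05).

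In C3H/10T1/2 Mrpl12 was called at 7 hrs already. The signals then were 953, 912 and 904 on the RSG arrays and 540.2, 570.3 and 492 on the DMSO arrays, a log2 fold change of 0.79 ± 0.14 (limma adjusted p = 0.000572). The RSG arrays stood apart while the DMSO arrays were lower than at 1 hr, when they read 1075, 1094 and 741. At 24 hrs the signals were 1354, 1409.5 and 1385 on the RSG arrays and 850.4, 942 and 763 on the DMSO arrays (log2 fold change 0.70 ± 0.14, limma adjusted p = 0.00111). At 48 hrs they were 983, 1222 and 964 on the RSG arrays and 670.3, 806 and 699 on the DMSO arrays, the groups still apart, with a log2 fold change of 0.54 ± 0.14 (limma adjusted p = 0.0143). That last call was lost without RSG replicate 2, without DMSO replicate 1 or 3 and in a fit of the 2 groups alone (highest adjusted p = 0.114 by limma). At 7 hrs in 3T3-L1 the log2 fold change was 0.49 ± 0.17 (limma adjusted p = 0.148), with all 3 RSG arrays (452, 629 and 555) above the DMSO arrays (374, 354 and 430.3). At 1, 2 and 4 hrs it was 0.23, -0.14 and 0.10 for 3T3-L1, and 0.32, 0.10 and 0.28 in C3H/10T1/2, none of them called.

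Mrpl18 is the counterpart of the bacterial large subunit protein that holds the 5S ribosomal RNA. It rose at all 3 later times in C3H/10T1/2. Its signals at 7 hrs were 247, 253 and 231 on the RSG arrays and 197, 154 and 154 on the DMSO arrays. At 24 hrs they were 393, 394 and 326 on the RSG arrays and 243, 256 and 229 on the DMSO arrays. At 48 hrs it read 305, 345 and 305 on the RSG arrays and 179.9, 186 and 246 on the DMSO arrays. The groups did not overlap at any of these times. The log2 fold changes were 0.54 ± 0.13, 0.61 ± 0.13 and 0.65 ± 0.13 (limma adjusted p = 0.0142, 0.00268 and 0.00148). The call at 7 hrs was lost with the 2 groups alone, without RSG replicate 1 or 2 and without DMSO replicate 2 or 3 (highest limma adjusted p = 0.135), and that at 48 hrs with the 2 groups alone (highest limma adjusted p = 0.0588). In 3T3-L1 at 24 hrs the signals were 381, 370.3 and 346 on the RSG arrays and 252, 239 and 235 on the DMSO arrays, also apart, and the log2 fold change was 0.60 ± 0.16 (limma adjusted p = 0.011, and 0.0506 without RSG replicate 1). At 48 hrs in 3T3-L1 the groups overlapped, with 305, 238 and 322 on the RSG arrays and 256, 202 and 236 on the DMSO arrays, and Mrpl18 was not called (log2 fold change 0.31 ± 0.16).

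Mrps18b, 1 of 3 mammalian genes related to a single bacterial small subunit protein, was called higher at 24 and 48 hrs in both lines. In 3T3-L1 its signals were 426, 376 and 474 on the RSG arrays and 259, 287 and 373 on the DMSO arrays at 24 hrs. At 48 hrs they were 469, 451 and 494 on the RSG arrays and 340.4, 292 and 326 on the DMSO arrays. The 24 hrs groups came within a few units of each other, and the 48 hrs groups lay well apart. The C3H/10T1/2 signals were 611, 604 and 618 on the RSG arrays and 487, 441 and 404 on the DMSO arrays at 24 hrs. At 48 hrs they were 578, 526 and 505 on the RSG arrays and 385, 357 and 375 on the DMSO arrays, and the groups were apart at both times. The 4 log2 fold changes lay close together, at 0.48 ± 0.13 and 0.56 ± 0.13 for 3T3-L1, and 0.46 ± 0.11 and 0.52 ± 0.11 in C3H/10T1/2 (limma adjusted p = 0.0147, 0.00353, 0.00676 and 0.00268). In 3T3-L1 the call at 24 hrs was lost with the 2 groups alone, without RSG replicate 1 or 3 and without DMSO replicate 1 or 2 (highest limma adjusted p = 0.104). In C3H/10T1/2 it was lost at 24 hrs with the 2 groups alone and without DMSO replicate 3 (highest limma adjusted p = 0.0673) and at 48 hrs with the 2 groups alone (highest limma adjusted p = 0.0624). The other 2 genes of that family, Mrps18a and Mrps18c, were never called. At 24 and 48 hrs their log2 fold changes were 0.23 and -0.33 for Mrps18a and -0.09 and -0.21 for Mrps18c in 3T3-L1. In C3H/10T1/2 Mrps18a gave 0.29 and 0.13 and Mrps18c 0.24 and -0.28.

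**Figure D2:**
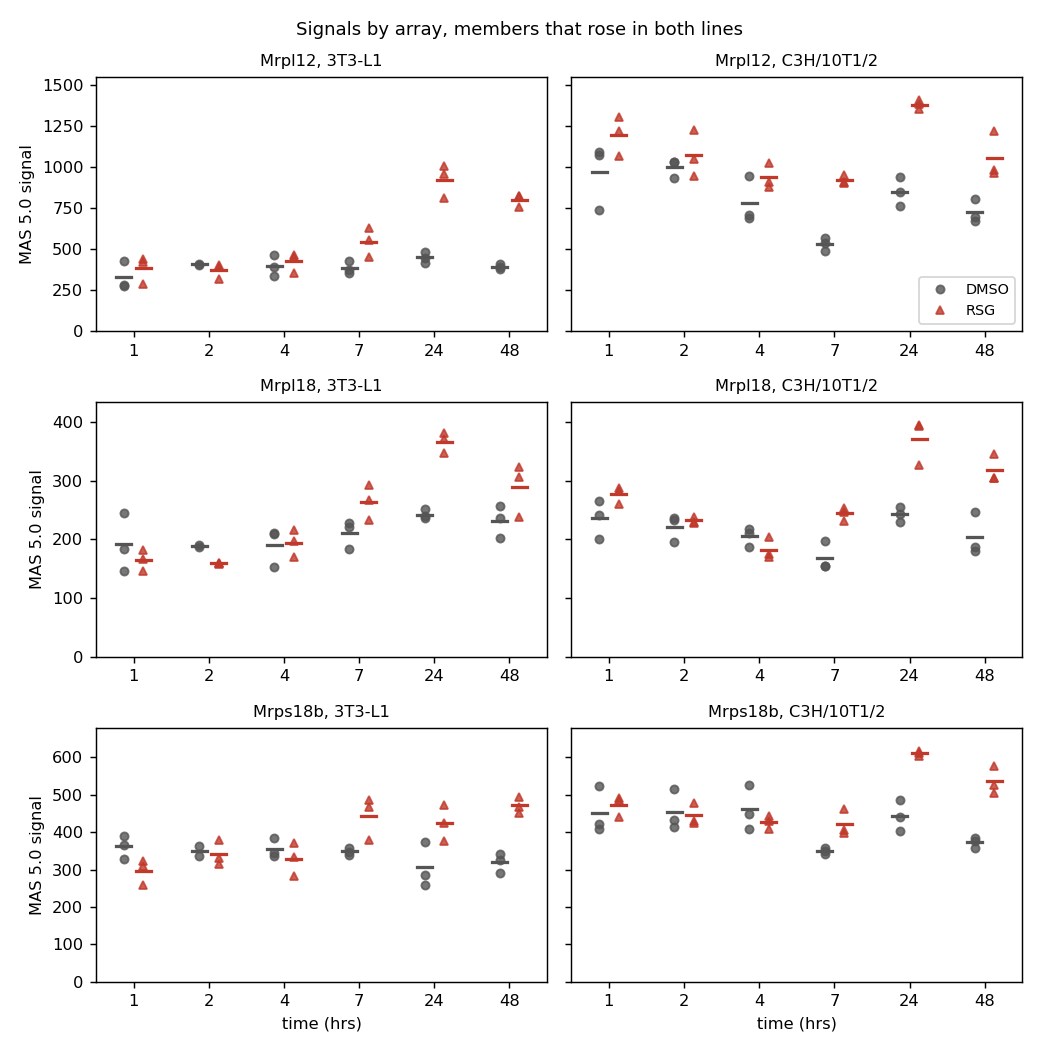
MAS 5.0 signal on each array (vertical axis from 0) by time in hrs, DMSO as grey circles and RSG as red triangles, with group means as short lines, for Mrpl12, Mrpl18 and Mrps18b in both lines. At 24 hrs every RSG array is above every DMSO array in each panel, for example 810.4 to 1008 against 419 to 487 for Mrpl12 in 3T3-L1.

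Of the other large subunit genes, Mrpl55 (a protein with no bacterial counterpart) rose in 3T3-L1 at both late times. At 48 hrs its signals there were 183, 186 and 153 on the RSG arrays and 98.7, 106 and 84.5 on the DMSO arrays. The RSG arrays were all above the DMSO arrays, with a log2 fold change of 0.85 ± 0.15 (limma adjusted p = 0.000134), after 0.49 ± 0.15 at 24 hrs. The call at 24 hrs was lost with the 2 groups alone, without RSG replicate 1 or 2 and without DMSO replicate 1 or 2 (highest limma adjusted p = 0.197). Its C3H/10T1/2 changes of 0.49 and 0.43 were not called (limma adjusted p = 0.0567 and 0.124). Mrpl47, the counterpart of a bacterial protein at the exit of the peptide tunnel, rose in 3T3-L1 at 24 hrs (175, 139 and 189 on the RSG arrays and 91.4, 85 and 139.7 on the DMSO arrays). Its groups overlapped narrowly, the lowest RSG array at 139.2 and the highest DMSO array at 139.7. The log2 fold change was 0.69 ± 0.20 (limma adjusted p = 0.0213), a call lost with the 2 groups alone, without RSG replicate 1 or 3 and without DMSO replicate 1 or 2 (highest limma adjusted p = 0.138). Mrpl47 was called at 48 hrs instead in C3H/10T1/2, at 0.59 ± 0.15 (limma adjusted p = 0.0175), which was lost with the 2 groups alone, without RSG replicate 2 or 3 and without DMSO replicate 1 (highest limma adjusted p = 0.136).

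In C3H/10T1/2 at 24 hrs Mrpl51 (without a bacterial counterpart) and Mrpl45 (which ties the ribosome to the inner membrane) were among the genes most clearly higher with RSG than with DMSO. Both were also called lower with DMSO at 24 hrs than at 1 hr, as given below. Mrpl51 read 1536, 1460.2 and 1050.5 on the RSG arrays and 919.7, 755 and 768 on the DMSO arrays. Mrpl45 read 577, 602 and 725 on the RSG arrays and 435, 402 and 386 on the DMSO arrays. The RSG arrays were above the DMSO arrays for both, with log2 fold changes of 0.71 ± 0.12 for Mrpl51 and 0.63 ± 0.11 for Mrpl45 (limma adjusted p = 0.00019 and 0.000358). Both calls held under all 13 alternatives tried. Mrpl20 had the highest fold change of the group in that comparison, 0.89 ± 0.27, and the widest error. Its signals were 452, 598 and 574 on the RSG arrays and 213, 273 and 416 on the DMSO arrays, and its call (limma adjusted p = 0.0362) was lost under 8 of 13 alternatives. Mrpl34, the counterpart of a small bacterial protein of the large subunit, was called in C3H/10T1/2 at 48 hrs. It read 627, 550.4 and 521 on the RSG arrays and 349.7, 337 and 346 on the DMSO arrays, the groups far apart (log2 fold change 0.71 ± 0.12, limma adjusted p = 0.000164). With DMSO it was also called lower at 48 hrs than at 1 hr.

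Among small subunit genes the largest rise was 0.59, by Mrps2. Mrps34, found only in mitochondrial ribosomes, was called in 3T3-L1 at 24 hrs, where it read 1260.1, 1037 and 1147 on the RSG arrays and 837, 689.9 and 796 on the DMSO arrays. The groups were apart and the log2 fold change was 0.57 ± 0.13 (limma adjusted p = 0.00416). Mrps2, the counterpart of a conserved bacterial protein, was called in both lines at 48 hrs. In 3T3-L1 it read 432, 358 and 357 on the RSG arrays and 239, 245 and 277 on the DMSO arrays. The C3H/10T1/2 signals were 335, 277 and 278 on the RSG arrays and 228, 189 and 198 on the DMSO arrays. There was no overlap in either line, with log2 fold changes of 0.59 ± 0.15 and 0.53 ± 0.14 (limma adjusted p = 0.00497 and 0.0143). The Mrps2 call was lost in 3T3-L1 with the 2 groups alone (highest limma adjusted p = 0.0537) and in C3H/10T1/2 with the 2 groups alone, without RSG replicate 1 and without DMSO replicate 2 or 3 (highest limma adjusted p = 0.0949). Mrps23 was likewise called in both lines at 48 hrs, at 0.46 ± 0.13 and 0.47 ± 0.12. It was lost in 3T3-L1 with the 2 groups alone, without RSG replicate 1 or 3 and without DMSO replicate 3 (highest limma adjusted p = 0.127) and in C3H/10T1/2 with the 2 groups alone, without RSG replicate 1 or 3 and without DMSO replicate 1 or 2 (highest limma adjusted p = 0.0888). Mrps16, a conserved protein needed for assembly of the small subunit, was called in C3H/10T1/2 at both late times (0.40 ± 0.11 and 0.45 ± 0.11), and Mrps35 (0.43 ± 0.13) and Mrps36 (0.41 ± 0.12) at 24 hrs. Mrps16 was lost at 24 hrs with quantile normalization, with the 2 groups alone, without RSG replicate 1 or 3 and without DMSO replicate 1 or 2 (highest limma adjusted p = 0.159) and at 48 hrs with the 2 groups alone, without RSG replicate 2 and without DMSO replicate 1 or 3 (highest limma adjusted p = 0.118). Mrps35 was lost with the 2 groups alone, without RSG replicate 1 or 3 and without DMSO replicate 2 or 3 (highest limma adjusted p = 0.148), and Mrps36 with the 2 groups alone, without RSG replicate 1 or 2 and without DMSO replicate 2 or 3 (highest limma adjusted p = 0.174). Mrps36 carries a ribosomal name, but its protein is now known as a subunit of the 2-oxoglutarate dehydrogenase complex.

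Mrpl52, Mrps15 and Mrps6 fell in 3T3-L1 at 48 hrs, where the median of the 74 genes was 0.053. In that comparison 6.757% of the 74 were called higher and 4.054% lower, beside 6.162% and 8.631% of all genes. The share called higher was thus near the background. Mrpl52, of the large subunit, read 151, 125 and 215 on the RSG arrays and 448, 242 and 346 on the DMSO arrays. The lowest DMSO array was still above the highest RSG array, and the log2 fold change was -1.07 ± 0.21 (limma adjusted p = 0.000364), as large a change as the rise of Mrpl12. At 24 hrs in 3T3-L1 it was -0.46 ± 0.21 and not called (limma adjusted p = 0.161), though the arrays did not overlap (190.5, 254 and 217 on the RSG arrays and 289.5, 298 and 319 on the DMSO arrays). Mrpl52 has 2 further probe sets, which at 48 hrs gave -0.59 (called, limma adjusted p = 0.00205) and -0.48 (limma adjusted p = 0.0755).

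Mrps15, the counterpart of a conserved bacterial small subunit protein, read 189.9, 178 and 174 on the RSG arrays and 342, 236 and 314 on the DMSO arrays in 3T3-L1 at 48 hrs. All RSG arrays were below all DMSO arrays, with a log2 fold change of -0.70 ± 0.18 (limma adjusted p = 0.00615). At 24 hrs its groups overlapped and the change was -0.08 ± 0.18. Mrps6, another small subunit protein conserved from bacteria, read 539, 543 and 645 on the RSG arrays and 1136, 729.8 and 820.5 on the DMSO arrays at 48 hrs. Its groups were apart, with DMSO replicate 1 the highest by far (log2 fold change -0.62 ± 0.15, limma adjusted p = 0.00396, a call lost with the 2 groups alone and without DMSO replicate 1, with the highest adjusted p 0.0755). The DMSO level of Mrps6 had risen over the culture, from 513, 492 and 648 at 1 hr, while the RSG arrays read 548, 487 and 491 at 1 hr. None of the 3 was called in C3H/10T1/2. Their log2 fold changes at 48 hrs there were -0.33 for Mrpl52, -0.09 for Mrps15 and -0.21 for Mrps6.

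**Figure D3:**
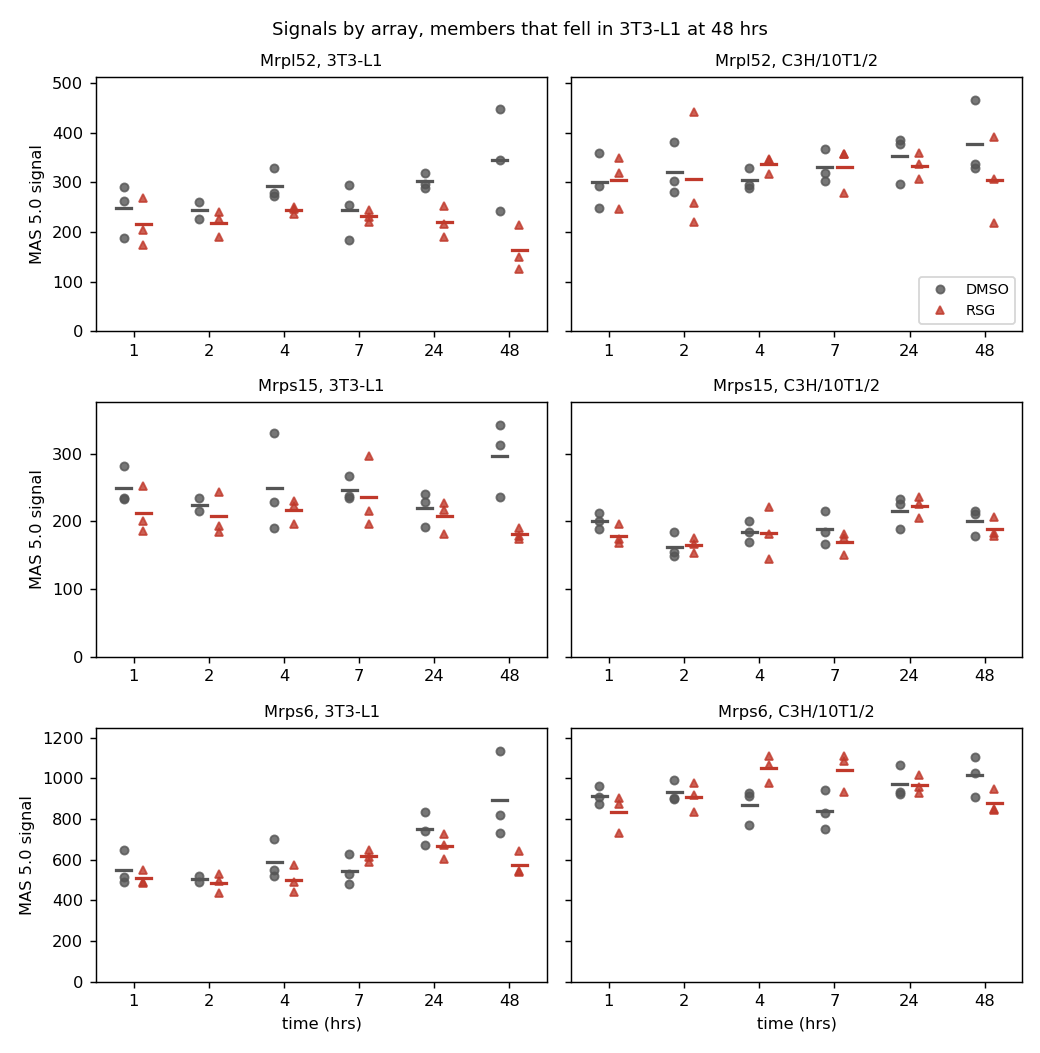
MAS 5.0 signal on each array (vertical axis from 0) by time in hrs, DMSO as grey circles and RSG as red triangles, with group means as short lines, for Mrpl52, Mrps15 and Mrps6 in both lines. In 3T3-L1 at 48 hrs every RSG array is below every DMSO array, for example 125 to 215 against 242 to 448 for Mrpl52, and in C3H/10T1/2 at 48 hrs the groups overlap for all 3 genes.

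Most of the 74 genes were not called, and at the late times more of them were above than below 0. The median log2 fold change was 0.17 (3T3-L1) and 0.16 (C3H/10T1/2) at 24 hrs, beside 0.00 and -0.07 for all genes tested, and 52 and 59 of the 74 genes were above 0 (70.27% and 79.73%, beside 49.58% and 41.19% of all genes). At 48 hrs it was 0.05 in 3T3-L1, where 44 genes were above 0, and 0.16 in C3H/10T1/2, where 56 were (59.46% and 75.68%). All genes tested gave medians of -0.04 and -0.01 then, with 45.87% and 48.45% above 0. In 3T3-L1 at 48 hrs the median of the 74 genes ranged from -0.05 to 0.16 when 1 array was left out. At 24 hrs all RSG arrays were above all DMSO arrays for 20 of 74 genes in 3T3-L1 and 28 in C3H/10T1/2, beside 12.6% and 8.99% of all probe sets. At 48 hrs the numbers were 12 and 24, beside 10.8% and 8.75%. All RSG arrays were below all DMSO arrays for 2 genes in 3T3-L1 at 24 hrs and 6 at 48 hrs, where 15.6% and 14.4% of all probe sets were, and for none in C3H/10T1/2 at either time (14.6% and 10.5% of all probe sets).

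The large and small subunit genes had close medians, while their counts come from sets of unequal size. At 24 hrs 4 of 47 large and 2 of 27 small subunit genes rose in 3T3-L1 (8.511% and 7.407%), with medians of 0.18 and 0.17. For C3H/10T1/2 at that time it was 5 and 4 (10.64% and 14.81%), with medians of 0.15 and 0.19. At 48 hrs 2 large genes rose and 1 fell in 3T3-L1 (4.255% and 2.128%), and 3 small genes rose and 2 fell (11.11% and 7.407%). The medians were 0.08 and 0.02. At the same time 5 large and 4 small genes rose in C3H/10T1/2 (10.64% and 14.81%, medians 0.16 and 0.16). The range within a subunit was many times wider than the gap between them, from -0.46 to 1.03 for the large and from -0.40 to 0.57 for the small subunit in 3T3-L1 at 24 hrs. Per array, the mean log2 level of the large genes minus that of the small genes, centred on the DMSO mean of the first time, reached 0.118 ± 0.049 (SD, n = 3) under RSG in 3T3-L1 at 24 hrs, beside 0.055 ± 0.038 under DMSO. The C3H/10T1/2 values at 24 hrs were 0.06 ± 0.031 and 0.048 ± 0.044, and the array ranges of RSG and DMSO overlapped in both lines. These scores over the members are descriptions without a test.

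**Figure D4:**
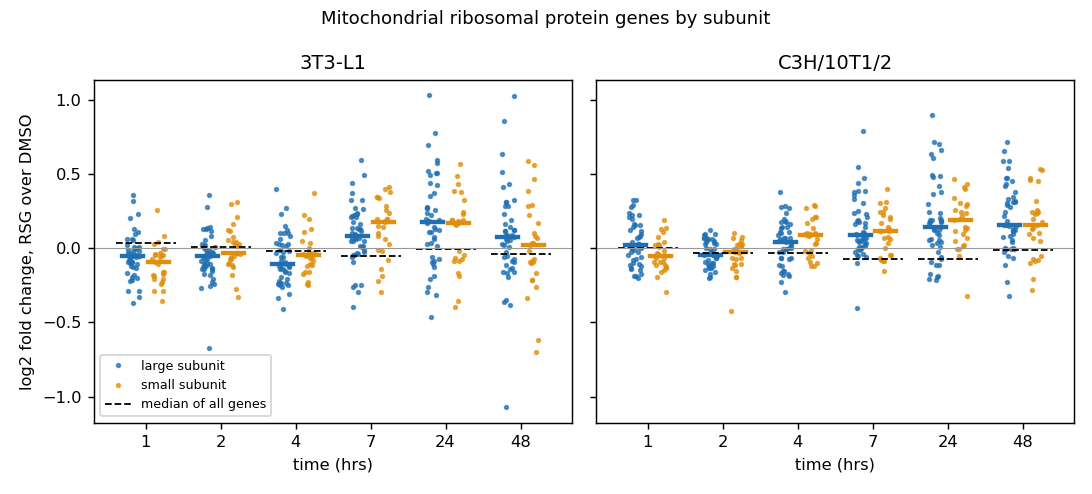
Log2 fold change of RSG over DMSO for each of the 74 genes (points), large subunit in blue and small subunit in orange, by time in hrs in 3T3-L1 (left) and C3H/10T1/2 (right), with thick lines for subunit medians and dashed lines for the median of all genes tested. At 24 hrs both subunits lie above the dashed line in both lines, with medians of 0.15 to 0.19.

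Between the lines, no mitochondrial ribosomal protein gene was shown to respond differently. The RSG effect in 3T3-L1 minus that in C3H/10T1/2 was tested in 1 limma fit over all 71 arrays, and no gene of the 74 was called at 24 or 48 hrs, where 0.257% and 0.848% of all probe sets were. At an unadjusted limma p under 0.05 there were 2 genes at 24 hrs and 9 at 48 hrs. Over all 10547 genes, 504 were higher and 406 lower at 24 hrs, and 460 and 526 at 48 hrs. Neither count of the 74 is therefore read as a difference between the lines. For Mrpl12 at 48 hrs the difference was 0.48 (95% interval 0.05 to 0.92, limma adjusted p = 0.455). It was -0.75 (95% interval -1.35 to -0.14, limma adjusted p = 0.353) for Mrpl52 and -0.61 (95% interval -1.06 to -0.16, limma adjusted p = 0.265) for Mrps15 at that time. A rise of Mrpl20 in C3H/10T1/2 at 24 hrs that was not called in 3T3-L1 differed by -0.39 (95% interval -1.12 to 0.34, limma adjusted p = 0.84), an interval that still allows a difference of over 1 log2 unit. For Mrps18b at 24 hrs the interval was narrow, with a difference of 0.02 (95% interval -0.32 to 0.36, limma adjusted p = 0.99). Among the 15 genes that rose anywhere, 6 were called in both lines at some time, which is 6 of the 8 that rose in 3T3-L1 and 6 of the 13 that rose in C3H/10T1/2. At 24 hrs Mrpl12, Mrpl18 and Mrps18b were called in both lines, and at 48 hrs Mrpl12, Mrps18b, Mrps2 and Mrps23. Across the 74 genes the log2 fold changes of the lines, which share no arrays, had a Pearson r of 0.565 at 24 hrs and 0.634 at 48 hrs, beside 0.49 and 0.508 over all genes. This is a correlation across genes, which are not independent replicates.

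**Figure D5:**
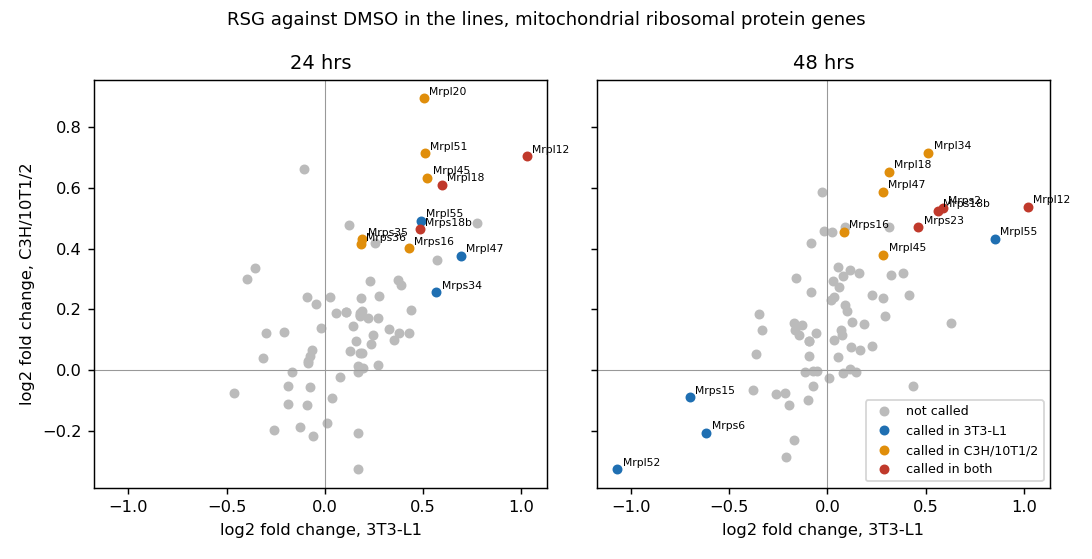
Log2 fold change of RSG over DMSO in 3T3-L1 (horizontal) against C3H/10T1/2 (vertical) for the 74 genes at 24 hrs and 48 hrs, coloured by the line in which limma called the gene. Mrpl12 is at the far right at both times (1.03 and 1.02 in 3T3-L1), and at 48 hrs Mrpl52, Mrps15 and Mrps6 lie at the lower left, below 0 in both lines.

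The levels were also followed over time within each treatment, against 1 hr. In 3T3-L1 with DMSO the median change of the 74 genes was 0.08 at 24 hrs and 0.17 at 48 hrs, and with RSG 0.31 and 0.26. Each course starts from its own 1 hr group. Centred on the DMSO mean at 1 hr, the mean log2 level of the 74 genes with RSG at 1 hr was -0.069. Only 18 genes were then above 0 for RSG against DMSO (24.32%, beside 56.44% of all genes). On that common base the levels were 0.238 with RSG and 0.08 with DMSO at 24 hrs, and 0.205 and 0.152 at 48 hrs. With DMSO limma called none at 24 hrs (background 0.288% higher and 0.66% lower). At an unadjusted limma p under 0.05, 6 were higher and 1 lower, beside 533 and 545 of all 10451 genes. At 48 hrs 1 gene was higher, Mrps6, at 0.69 ± 0.15 (limma adjusted p = 0.00776, background 0.577% higher and 1.39% lower), a call lost without the DMSO array of replicate 1 at 48 hrs or replicate 2 at 1 hr. With RSG, 18 of the 74 genes were higher at 24 hrs than at 1 hr and 14 at 48 hrs, 12 of them at both (background 5.24% and 5.11%). The number at 24 hrs was 8 without the RSG array of replicate 2 at 1 hr, 9 without replicate 3 at 24 hrs and 10 without replicate 1 at 24 hrs, and at 48 hrs 9 without replicate 1 at 48 hrs or replicate 3 at 1 hr. Mrpl12 was 1.28 ± 0.17 and Mrpl18 1.16 ± 0.16 above 1 hr at 24 hrs (limma adjusted p = 2.00e-06 and 4.59e-06). Mrps28, of the small subunit, was higher by 0.73 ± 0.14 (limma adjusted p = 0.00027) without a call for RSG against DMSO at 24 hrs (0.33 ± 0.14).

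With DMSO more genes were called in C3H/10T1/2, among the 74 as over all probe sets. The median change of the 74 genes with DMSO was near 0, at -0.005 at 24 hrs and -0.042 at 48 hrs, with 35 and 33 genes above 0. With RSG it was 0.136 and 0.107. The share of the 74 called lower with DMSO was 9.459% and 8.108%. At 24 hrs 7 of the 74 genes were lower with DMSO than at 1 hr and 1, Mrpl49, was higher, and at 48 hrs 6 were lower. The 8 genes lower at either time were Mrpl4, Mrpl34, Mrpl43, Mrpl45, Mrpl47 and Mrpl51 of the large subunit and Mrps21 and Mrps36. Over all probe sets the shares called were 5.5% lower and 6.25% higher at 24 hrs and 5.12% and 5.09% at 48 hrs. Mrpl45 fell by 0.55 ± 0.11 at 24 hrs and 0.57 ± 0.11 at 48 hrs, Mrpl51 by 0.53 ± 0.12 and 0.38 ± 0.12, and Mrpl34 by 0.40 ± 0.12 and 0.68 ± 0.12 on the log2 scale. The call of Mrpl34 at 24 hrs was lost without DMSO replicate 2 at 24 hrs or replicate 3 at 1 hr, and that of Mrpl51 at 48 hrs with no trend, without any 1 DMSO array at 48 hrs and without replicate 2 or 3 at 1 hr. Mrpl45 read 646, 594 and 555 with DMSO at 1 hr and 435, 402 and 386 at 24 hrs, while its RSG arrays read 574, 627 and 613 and 577, 602 and 725. Of the 8 genes lower with DMSO at either time, 5 are among the 13 called higher with RSG than with DMSO at 24 or 48 hrs (Mrpl34, Mrpl45, Mrpl47, Mrpl51 and Mrps36). With the replicate block, DMSO gave 3 genes higher at 24 hrs and 10 lower at 48 hrs, and RSG 4 higher at 24 hrs. These comparisons use the same DMSO arrays, so they are given side by side and not as support for each other. With RSG only Mrpl49 (0.42 ± 0.12) and Mrps18b (0.37 ± 0.11) were higher at 24 hrs than at 1 hr and Mrpl49 at 48 hrs (background 2.22% and 2.8%). The 7 genes lower with DMSO at 24 hrs were 3 without the DMSO array of replicate 2 at 24 hrs, 4 without replicate 2 at 1 hr and 2 without replicate 3 at 1 hr, and the calls of Mrpl49 and Mrps18b were each lost without several single arrays. With RSG replicate 1 at 1 hr left out, 2 genes rather than 1 were higher at 48 hrs, and none without RSG replicate 2 or 3 at 48 hrs or replicate 2 at 1 hr.

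The lines also differed in level without drug. Over all DMSO groups 27 of the 74 genes were higher in 3T3-L1 and 27 lower, where 55.1% of all probe sets were higher and 22.4% lower. The median difference was -0.05 for these genes and 0.33 (log2) for all probe sets, and relative to all probe sets the genes were thus lower in 3T3-L1. The size of that gap depends on scaling, since quantile normalization brought the median of all probe sets to 0.08 and left that of the 74 genes at -0.01. Of the genes that responded to RSG, Mrpl55 and Mrpl12 were lower in 3T3-L1, with log2 differences (3T3-L1 minus C3H/10T1/2) of -1.55 ± 0.06 and -1.01 ± 0.06, and Mrps35 was 1.05 ± 0.05 higher (limma adjusted p = 3.12e-29, 8.52e-21 and 2.01e-26). The fit took the arrays of all times as independent, though the batches of cells may have been shared between times. If they were, these errors and p-values are too small. The lines were grown and differentiated by different protocols, so line and culture cannot be told apart.

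Other genes of mitochondrial translation were read from lists of related function. Of 13 measured aminoacyl tRNA synthetases and amidotransferase subunits, which load tRNA in the mitochondrion, 1 rose in 3T3-L1 at 24 hrs and 3 at 48 hrs, and 2 rose in C3H/10T1/2 at each time, with none falling. Iars2, the isoleucine enzyme, rose by 0.80 ± 0.18 in 3T3-L1 at 48 hrs, and Gars, the glycine enzyme shared with the cytosol, rose in all 4 comparisons, by 0.75 and 0.96 in 3T3-L1 at 24 and 48 hrs, and 0.54 and 0.65 in C3H/10T1/2. Among 7 translation factors, Gfm1 (elongation factor G) rose by 0.81 ± 0.12 in 3T3-L1 and 0.54 ± 0.16 in C3H/10T1/2 at 24 hrs and by 0.42 ± 0.12 in 3T3-L1 at 48 hrs, and Tufm (elongation factor Tu) by 0.73 ± 0.19 in C3H/10T1/2 at 24 hrs. Mrrf, the ribosome recycling factor, fell in 3T3-L1 at 48 hrs (-0.51 ± 0.14). Of 19 assembly factors and ribosomal proteins with other names, 2 rose in 3T3-L1 at 48 hrs, Fastkd2 (0.98 ± 0.24) and Ptcd3 (0.48 ± 0.17), and Gadd45gip1 fell at 24 hrs (-0.62 ± 0.19). Of these 19, 1 fell in C3H/10T1/2 at 24 hrs, Mtg2 (-0.50 ± 0.16), and 1 rose at 48 hrs, Eral1 (0.48 ± 0.12).

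Of the 7 genes of mitochondrial transcription and RNA, Supv3l1, an RNA helicase, was called higher in 3T3-L1 at 24 hrs (0.59 ± 0.18) and in C3H/10T1/2 at 48 hrs (0.64 ± 0.12), and Lrpprc, a binding protein of mitochondrial messenger RNA, in C3H/10T1/2 at 48 hrs (0.71 ± 0.21). Tfam, the mitochondrial DNA packaging factor, was not called at 24 or 48 hrs. Of 10 regulators of mitochondrial genes, 3 rose in 3T3-L1 at 24 hrs and 2 at each of the other late comparisons. Ppargc1b, a coactivator of the estrogen-related receptors, was higher by 1.09 ± 0.18 in 3T3-L1 and 1.1 ± 0.25 in C3H/10T1/2 at 24 hrs, and Esrra, such a receptor, by 0.74 ± 0.14 and 0.49 ± 0.12. Nrip1, a corepressor, rose in 3T3-L1 at 24 hrs (0.62 ± 0.17) and Myc fell in C3H/10T1/2 at 24 hrs (-0.52 ± 0.16). Nrf1 and Gabpa, whose products bind the elements printed above, gave -0.22 and 0.30 for 3T3-L1, and -0.01 and 0.32 in C3H/10T1/2 at 24 hrs and were not called. Every gene of these lists named as rising or falling had a limma adjusted p under the threshold.

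In each of the 4 late comparisons the median of the mitochondrial ribosomal protein genes lay between those of complex I of the respiratory chain and of the cytosolic ribosomal proteins. Of 33 complex I subunits, 18 rose in 3T3-L1 at 24 hrs and 16 at 48 hrs, and 21 and 15 in C3H/10T1/2, none fell, and all 33 were above 0 each time, with medians of 0.44, 0.35, 0.41 and 0.40. Of 20 proteins of mitochondrial import measured, 7 rose in 3T3-L1 at the first late time and 5 at the other, and 5 and then 3 in C3H/10T1/2, with medians of 0.34, 0.22, 0.31 and 0.28. Shares called higher were 54.55%, 48.48%, 63.64% and 45.45% for complex I and 35%, 25%, 25% and 15% for import. All genes gave 5.157%, 6.162%, 4.059% and 3.177%. Of 42 cytosolic ribosomal proteins none rose and 5 fell, all in 3T3-L1 at 48 hrs (11.9%, beside 8.631% of all genes). Their medians were -0.04, -0.21, -0.05 and -0.01. The corresponding medians of the mitochondrial ribosomal protein genes were 0.17, 0.05, 0.16 and 0.16. These lists are described by their counts and medians, and no test of one list against another was made.

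Some genes had several tested probe sets that pointed the same way at 7, 24 or 48 hrs without all passing the test. These were Mrpl15, Mrpl19, Mrpl34, Mrpl51, Mrpl52, Mrps2, Mrps23 and Mrps9. Mrpl15 is the clearest case among the genes not called here. Its chosen probe set gave 0.48 in C3H/10T1/2 at 24 hrs (limma adjusted p = 0.0642), while 2 others gave 0.55 and 0.51 (limma adjusted p = 0.0025 and 0.00952), and the other two, 0.06 and 0.76, were not called. For Mrps9 in C3H/10T1/2 at 48 hrs the chosen probe set gave 0.46 (limma adjusted p = 0.0802) and another 0.52 (limma adjusted p = 0.0325). Counting every tested probe set of the 74 genes, 6 rose in 3T3-L1 at 24 hrs and 8 rose and 5 fell at 48 hrs of 120, and 11 and 12 rose in C3H/10T1/2 of 116. Over all probe sets 4.79% rose in 3T3-L1 at 24 hrs, and 6.2% rose and 8.09% fell at 48 hrs. In C3H/10T1/2 3.65% and 2.79% rose.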

How the data were processed

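RNA of 71 cultures was hybridised to Affymetrix mouse arrays. The deposited values are signal intensities that the authors computed with MAS 5.0 (MAS5 in the submitters' processing notes, version not given in the sources used here) and scaled to 1 level per array. From these, log2 intensities were taken after setting 132 values of 0 to 0.1. Probe sets whose mean signal reached the presence level of the study's methods in at least 1 group of a line were tested with limma 3.58.1 in R 4.3.3 (lmFit and eBayes with trend, all 12 groups of a line, or both lines for differences between them) and adjusted by Benjamini-Hochberg. The fit was tested on simulated data. Tables and figures used Python 3.11.15 and matplotlib 3.10.9. Probe sets of several genes were left out, 3 of them with an Mrp symbol (Mrps34, which has another probe set, Mrpl30 and Mrpl53). RefSeq lists 78 symbols that fit the rule, and Mrpl30, Mrpl53, Mrps10 and Mrps27 are not analysed here. Genes were named by rule: per line at 7, 24 and 48 hrs up to 6 largest called rises and 4 falls, any gene called against the group's median or differing between lines, and genes whose probe sets disagree in call; of the related lists, up to 3 rises and 2 falls. Values of called genes in all 12 comparisons are in the plot of fold changes. Some further called genes and those named as not called were chosen after their values were seen. Ranking genes by level, part of the rule, was dropped because levels of different probe sets are not comparable. The members and lists were chosen with earlier results of these data known. The RSG time courses were added after seeing the data. Deviations from the group means of same-numbered RSG and DMSO arrays correlated above 0.1 in all 18 pairs of C3H/10T1/2 (0.132 to 0.307). In 3T3-L1 they did in 14 of 17 (0.019 to 0.261). Differently numbered arrays were not compared, so these values cannot say whether replicate numbers paired the samples in either line. The calls come from the fit without the replicate block. Alternatives were no trend, no filter, low values raised to the presence level, quantile normalization, the replicate block, the 2 groups alone, the methods' test and leaving out each array.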

Additional observations from a re-analysis of the deposited data

How the results depend on the processing

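No named call changed direction under any alternative, and of 84 results for single genes 29 were called under every one and 55 were lost under at least 1. The causes of the changes were not tested. The counts below stand without the share of all probe sets under the same setting. With the replicate block, the genes called higher with RSG numbered 2 in 3T3-L1 at 7 hrs and 13 at 24 hrs, and 5 and 16 in C3H/10T1/2 at these times. Against 1 hr with DMSO the replicate block gave 1 higher in 3T3-L1 at 24 hrs, 3 higher in C3H/10T1/2 at 24 hrs and 10 lower at 48 hrs, and with RSG 4 higher in C3H/10T1/2 at 24 hrs. Under the block no named call was lost. Quantile normalization gave 10 higher in 3T3-L1 at 24 hrs, and in C3H/10T1/2 at 24 against 1 hr 0 higher with DMSO and 0 with RSG, where no trend gave 1. With only the 2 groups compared, which leaves fewer arrays, 3 were higher in 3T3-L1 at 48 hrs, and 1, 4 and 1 in C3H/10T1/2 at 7, 24 and 48 hrs. The methods' test without adjustment marked, at 1, 2 and 4 hrs, 5, 2 and 2 genes of 3T3-L1 cells and 1, 1 and 4 of C3H/10T1/2 cells. It marked 10 higher and 2 lower in 3T3-L1 at 7 hrs, then 17 and 2 (24 hrs) and 9 and 7 (48 hrs), and 11, 17 and 20 higher in C3H/10T1/2. After adjustment it gave 4 higher in C3H/10T1/2 at 7 hrs. Leaving out 1 array gave 2 to 8 genes higher with RSG in 3T3-L1 at 24 hrs, 1 to 3 in C3H/10T1/2 at 7 hrs, 5 to 8 at 24 hrs and 4 to 8 at 48 hrs. Against 1 hr it gave with DMSO 0 to 1 higher in 3T3-L1 at 24 and at 48 hrs, and in C3H/10T1/2 at 24 hrs 0 to 1 higher and 2 to 6 lower. With RSG it gave 8 to 15 higher at 24 hrs and 9 to 15 at 48 hrs in 3T3-L1, and 0 to 2 at both times in C3H/10T1/2. The median over the 74 genes without 1 array was -0.068 to 0.013 for 3T3-L1 at 2 hrs and 0.034 to 0.085 for C3H/10T1/2 at 4 hrs.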
